A study of Mus musculus with 8 samples.

Results

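L5 IT-like nuclei are excitatory neuronal nuclei of the mouse cortex that carried RNA of Il1rapl2 together with Deptor, Scube1 or Rxfp2. They were chosen from the UMI counts themselves (a UMI, or unique molecular identifier, stands for 1 captured RNA molecule). A nucleus needed at least 500 detected genes and mitochondrial UMIs of at most 2% of its total. It also needed at least 1 UMI of Slc17a7, the vesicular glutamate transporter of most cortical excitatory neurons, at least 3 UMIs of Il1rapl2 and at least 2 UMIs of Deptor, Scube1 and Rxfp2 together. At most 1 UMI of the GABA-synthesis genes Gad1 and Gad2, at most 2 of Foxp2, a gene of corticothalamic neurons, and at most 2 of the glial and vascular genes Slc1a3, Mog, Inpp5d and Flt1 together were allowed. The rule selected 5535 nuclei, 13.2% of the 42073 excitatory nuclei and 7.17% of the 77185 nuclei that passed the filter. The series held 97772 barcodes in all.

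The series profiled nuclei of individual C57BL/6J mice at postnatal day 25, with 4 wild type (WT) and 4 Chd8 heterozygous animals (Chd8+/-, written Chd8 het). Chd8 encodes a chromatin remodelling enzyme, and heterozygous loss-of-function variants of the human gene are a known cause of autism with macrocephaly. Each genotype had 2 males and 2 females with 1 library per animal, and all animals shared the same tissue handling: cortex with its medial part cut away, flash freezing and a single round of nuclei isolation. Libraries numbered 1 were single-indexed and libraries numbered 2 were dual-indexed, and each sex of each genotype had 1 of either kind. Values by library are listed in the order male 1, male 2, female 1, female 2. The labels do not describe the Chd8 allele, and they state that WT and Chd8 het mice were matched by litter and sex without saying which libraries came from the same litter.

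Intratelencephalic (IT) neurons send axons to other cortical areas and to the striatum, and in layer 5 they lie among extratelencephalic neurons, which project to the brainstem and spinal cord, and near-projecting neurons, whose axons stay close by. Layer 5 IT neurons carry signals between areas and hemispheres. Cortical IT types are known to grade into each other along cortical depth rather than to fall into sharply separate classes.

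Member nuclei numbered 553 to 907 per library and supplied 6833198 to 13542430 UMIs per library. Their median depth was 12313 UMIs, against 8334 in all other excitatory nuclei, which the rule favours because it asks for minimum UMIs of several genes. Scrublet, which scores nuclei by likeness to simulated doublets, marked 233 members (4.21%). Among kept nuclei 691 of 76487 barcode sequences occurred in more than 1 library, and among members 4 of 5531 did. Chd8 het male 2 stood apart in the excitatory nuclei, with 6.79% of them Rorb-rich against 14.1% to 24.0% in the other 7 libraries. The shares it sets apart are given with and without it.

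The combinations of the genes in the rule were uneven. Deptor, an inhibitor of the mTOR kinase, and Scube1, a secreted CUB and EGF domain protein, were both present in 2389 members (43.2%) that lacked Rxfp2. Scube1 alone qualified 1953 members (35.3%), and Deptor alone qualified 253. Rxfp2, a receptor for the hormone Insl3, was present together with both others in 605 members (10.9%), with Scube1 in 250, with Deptor in 74 and alone in 11. The type therefore rested on Scube1 and Il1rapl2 more often than on Deptor or Rxfp2. The median member held 19 UMIs of Il1rapl2, with the 10th percentile at 4 and the 90th at 70. Il1rapl2 encodes a synaptic membrane protein of the interleukin-1 receptor family, whose close relative Il1rapl1 is linked to X-linked intellectual disability.

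Of the 5 marker genes given for the type, Hs3st2 was the only one that the rule did not use. Hs3st2 adds 3-O-sulfate to heparan sulfate chains and lies at chr7:121391859-121501770 (mm10). Its level, in UMIs scaled to a total of 1000000 over the members of a library (CPM), was 203, 339, 227 and 320 in the WT libraries and 201, 353, 229 and 272 in the Chd8 het libraries. The genotypes overlapped throughout, and the 4 dual-indexed libraries were all above the 4 single-indexed ones. The mean was 268 ± 61.8 CPM (SD, n = 8 libraries) against 124 ± 43.0 in all other excitatory nuclei. Hs3st2 was higher in members than in Rorb-rich nuclei (62.7 ± 20.4; a layer 4/5-like class with at least 3 Rorb UMIs and at most 2 of Il1rapl2) and in nuclei rich in Galnt14 and Sulf1 (178 ± 45.2; a deep class) in 8 of 8 libraries. It was not higher than in Foxp2-rich nuclei, a corticothalamic-like class with 282 ± 132 CPM, where members were above in 5 of 8 libraries. After each nucleus was thinned to 5000 UMIs, 60.1% of members carried an Hs3st2 UMI (79.3% unthinned), 60.5% of Foxp2-rich nuclei (73.5% unthinned), 47.0% of Galnt14 and Sulf1-rich nuclei (62.4%) and 19.6% of Rorb-rich nuclei (27.7%). The share was 11.5% (8.43% unthinned, median depth 2568 UMIs) in a glial reference that should lack the gene, where 4081 nuclei were too shallow and 686 remained. Thinning left out 178 members, 517 Foxp2-rich, 145 Galnt14 and Sulf1-rich and 1138 Rorb-rich nuclei.

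The label was checked against further markers of layer 5 IT neurons, and these were mixed: of the 12 genes of a layer 5 IT list, Hs3st2 included, the mean was higher in members than in other excitatory nuclei for 6. The list summed to 569 CPM in members, 382 in other excitatory, 362 in Rorb-rich, 611 in Galnt14 and Sulf1-rich and 494 in Foxp2-rich nuclei, and 705 in the glial reference. Etv1, an ETS transcription factor of layer 5, was at 113 ± 25.8 CPM in members against 49.6 in other excitatory nuclei, and above Galnt14 and Sulf1-rich nuclei (93.0) in 5 of 8 libraries. Hsd11b1, which regenerates active glucocorticoid, was at 18.6 ± 4.24 CPM against 4.93. Whrn, at 31.6 against 20.5 CPM, and the low genes Endou and Batf3 were also higher on average, Batf3 in only 5 of 8 libraries. The other 6 were lower on average: Tox2 was at 7.76 against 11.2 CPM, Parm1 at 24.3 against 40.2, Col6a1 at 12.9 against 18.5 and Tmem163 at 37.2 against 50.03, Pld5 at 51.3 against 58.8 and Col27a1 at 0.945 against 1.79. The name L5 IT-like is kept here for nuclei that met the rule.

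Markers of neighbouring types were examined next. Bcl11b, a transcription factor of subcortically projecting neurons, was at 18.6 ± 11.8 CPM against 169 ± 35.6 in Foxp2-rich nuclei, and the extratelencephalic markers Chrna6 and Npr3 were at 0.183 and 6.14 CPM. The 5 measured extratelencephalic markers, Bcl11b included, summed to 33.9 CPM in members, 112 in other excitatory and 37.0 in Rorb-rich nuclei. They were mixed: 2 of the 5 were higher in members than in other excitatory nuclei, and 3 were higher than in Rorb-rich nuclei. Tle4, a corepressor of corticothalamic neurons, was at 47.3 ± 5.45 CPM against 562 ± 61.5 in Foxp2-rich nuclei, and Syt6, a synaptotagmin of the same neurons, was at 2.15 against 110. The 5 corticothalamic markers, Foxp2 included, summed to 470 CPM in members, 1050 in other excitatory, 503 in Rorb-rich and 3927 in Foxp2-rich nuclei. Foxp2 was limited by the rule. Of the 5, 0 were higher in members than in other excitatory nuclei, and 3 were higher than in Rorb-rich nuclei. Cux2 and Cux1, homeobox genes of upper layers, were at 68.2 and 102 CPM against 289 and 549 in Rorb-rich nuclei. The L4/5 IT list (Rorb, Rspo1, Scnn1a and Cux1) summed to 607 CPM in members and 687 in other excitatory nuclei, and Rorb itself was above other excitatory nuclei in 8 of 8 libraries. Tshz2, a zinc finger gene of near-projecting neurons, was at 191 ± 127 CPM with a range from 47.1 to 429 over libraries, while Slc17a8, another near-projecting marker, was at 0.403. RNA of other cell types was present at low level. The lists below include Mog, Slc1a3, Inpp5d, Flt1, Gad1 and Gad2, whose UMIs the rule limited. Their sums were therefore partly fixed by the choice of members. The 5 oligodendrocyte markers summed to 121 to 193 CPM in WT and 127 to 287 CPM in Chd8 het members, against a mean of 12469 in the glial reference, and none was at 0. The astrocyte list summed to 37.8 to 42.9 CPM in WT and 37.3 to 44.7 in Chd8 het, the microglial list to 99.7 to 117 and 97.1 to 146, the vascular list to 4.10 to 5.79 and 4.77 to 7.86, and the interneuron list to 79.7 to 127 and 70.4 to 95.7. The part of this RNA in the results below was not tested.

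The genes outside the rule that set members most apart from all other excitatory nuclei are a description, since the same counts chose the nuclei. Ptprm, a receptor tyrosine phosphatase that binds its own kind on neighbouring cells, was at 486, 384, 400 and 346 CPM in WT and at 398, 321, 436 and 405 in Chd8 het. Members had 5.24 times the level of other excitatory nuclei (geometric mean of the 8 library ratios), and the lowest member library exceeded every comparison mean: 75.5 CPM in other excitatory, 108 in Rorb-rich, 49.1 in Galnt14 and Sulf1-rich and 50.2 in Foxp2-rich nuclei. Fras1, an extracellular matrix protein, was 2.57 times higher (259 against 100 CPM), and Sulf2, an enzyme that trims 6-O-sulfate from heparan sulfate, 2.26 times (98.2 against 42.7). Hs3st2, also a heparan sulfate enzyme among the 15 leading genes and a marker given with the type, was 2.21 times higher. Galntl6 and Galnt17, of the family that starts O-linked glycan chains, were 3.57 and 2.38 times higher.

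Slc24a3, a potassium-dependent sodium and calcium exchanger, was at 573 ± 98.1 CPM against 177 in other excitatory nuclei, higher in 8 of 8 libraries. Cnih3, an auxiliary subunit of AMPA receptors, was 2.15 times higher. Other leading genes were Prrg1 (3.69 times), the RNA-binding protein gene Raver2 (2.20 times), Etv1 (2.28 times) and the noncoding transcripts BC006965 (4.27 times), Gm49678 (2.27 times) and 4933432K03Rik (2.19 times). The last overlaps Hs3st2, and without a stated strand setting the reads of overlapping genes cannot be told apart. All 15 were higher in members than in Rorb-rich nuclei in 8 of 8 libraries. Against Galnt14 and Sulf1-rich nuclei Etv1 was higher in 5 of 8 libraries and Raver2 in 7. Against Foxp2-rich nuclei Hs3st2 and 4933432K03Rik were higher in 5 of 8. The genes were chosen against all other excitatory nuclei, which include these classes, so nothing is read from these counts.

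The 10 genes lowest in members are described in the same way. Trabd2b, a membrane protease that inactivates Wnt ligands, was 4.86 times lower than in other excitatory nuclei, at 9.95 against 50.2 CPM. Bcl11b was 4.39 times lower, Nfia, a transcription factor of the nuclear factor I family, 4.04 times, Meis2, a homeobox gene, 3.71 times and Tle4 3.54 times. Dscaml1, a cell adhesion molecule, was 4.26 times lower (80.6 ± 54.2 against 316 ± 148 CPM), Kctd8, an auxiliary subunit of GABA-B receptors, 3.80 times and Sema5a, a semaphorin, 3.75 times. The noncoding genes 6530403H02Rik and Gm2164 were 4.14 and 3.75 times lower. Against Rorb-rich nuclei the picture differed by gene: Nfia, Meis2, Kctd8, Trabd2b and Gm2164 were lower in members in 8 of 8 libraries, whereas Bcl11b and Dscaml1 were higher in members in 4 and Sema5a in 7.

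**Figure D1:**
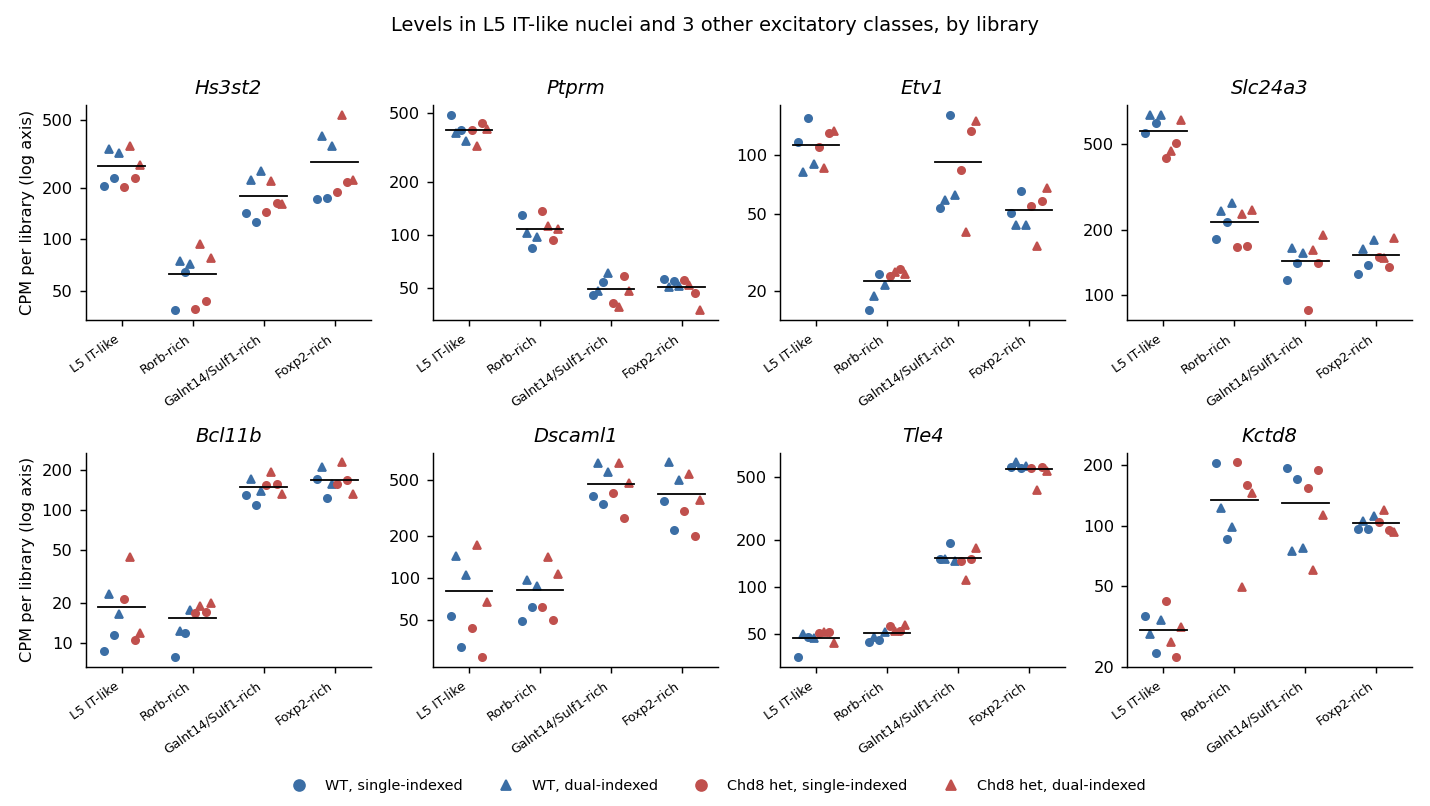
Levels of 8 genes (CPM, log axis) in L5 IT-like nuclei and in Rorb-rich, Galnt14 and Sulf1-rich and Foxp2-rich nuclei, with 1 point per library, blue for WT and red for Chd8 het, circles for single-indexed and triangles for dual-indexed libraries, and lines at the mean. Ptprm separated members (321 to 486 CPM) from all comparison classes, whereas Hs3st2 was as high in Foxp2-rich nuclei (mean 282) as in members (mean 268).

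Nuclei just inside and just outside the thresholds had close levels of several genes. The 358 members with exactly 3 Il1rapl2 UMIs had 146 ± 35.8 CPM of Hs3st2 and 30.4 ± 12.3 CPM of Etv1, and the 583 nuclei that failed only by having 2 had 115 ± 44.7 and 28.8 ± 6.33. Ptprm was at 184 ± 125 CPM inside and 105 ± 34.7 outside. Members with exactly 2 UMIs of Deptor, Scube1 and Rxfp2 numbered 1312, with Hs3st2 at 211 ± 48.2 CPM, and the 1786 nuclei with 1 such UMI had 179 ± 47.0. Another 2393 nuclei met every other condition with none of those UMIs. The thresholds thus cut through a gradient of these genes, which is given without a test.

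Levels of several genes differed between members with many and with few Il1rapl2 UMIs, which also differed in depth. The groups of members below were drawn after values had been seen, and the levels that differ between groups are described without a test. Genotype and index type are compared within some of these groups further on. The 1886 members with at least 30 Il1rapl2 UMIs had a median of 14638 UMIs per nucleus, the 2074 with 10 to 29 lay between, and the 1575 with 3 to 9 had a median of 10606. In the upper group Etv1 was at 166 ± 36.5 CPM against 49.4 ± 15.5 in the lower group, 3.37 times higher. Ptprm was at 560 ± 59.5 against 209 ± 57.8 CPM, and Hs3st2 at 353 ± 85.1 against 189 ± 48.6. Genes of the layer 5 IT list, to which Etv1 and Hs3st2 belong, ran both ways. Hsd11b1 was at 24.7 ± 6.93 against 9.58 ± 4.76 CPM, higher in 7 of 8 libraries. Whrn was at 18.2 ± 3.38 against 43.2 ± 7.69 CPM, lower in 8 of 8. Also higher in the upper group were Gm10635, a long noncoding RNA (71.1 against 5.89 CPM), Olfm3, an olfactomedin (3.28 times), Esrrg, an orphan nuclear receptor (2.99 times), Plcxd3, a phospholipase-like gene (2.94 times), Tox, an HMG-box factor (2.86 times), Grik3, a kainate receptor subunit (2.83 times) and Kirrel3, an adhesion molecule (2.81 times).

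The upper-layer genes Cux2 and Cux1 ran the opposite way. Cux2 was at 24.8 ± 5.28 CPM in members with at least 30 Il1rapl2 UMIs and at 146 ± 40.4 in those with 3 to 9, or 5.602 times lower. Cux1 was at 50.9 ± 8.29 against 200 ± 46.8 CPM, 3.82 times lower. Reads of Cux1 and of the noncoding gene Gm16599, which overlaps it and was 4.34 times lower, cannot be told apart here. Pld5, of the phospholipase D family and also of the layer 5 IT list, was 5.68 times lower (18.8 against 105 CPM). Robo3, an axon guidance receptor, was 4.95 times lower, Pde7b, a cyclic AMP phosphodiesterase, 3.40 times and Pparg, a nuclear receptor, 3.36 times. All of these differences had the same sign in 8 of 8 libraries. In Rorb-rich and in Galnt14 and Sulf1-rich nuclei Cux2 was at 289 and 56.5 CPM, Cux1 at 549 and 122 and Pld5 at 161 and 52.4, so the low-Il1rapl2 members lay between these classes for all 3 genes. Of the 15 leading genes of the type, 13 were higher in the upper group in 8 of 8 libraries and 0 were lower, and of the 10 lowest genes 8 were lower there. Of all 3161 tested genes outside the rule with at least 50 CPM in members or other excitatory nuclei, 11.6% were higher and 21.6% lower in the upper group in 8 of 8 libraries. The 25 genes were chosen for their levels in these same members, so nothing is read from their counts.

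**Figure D2:**
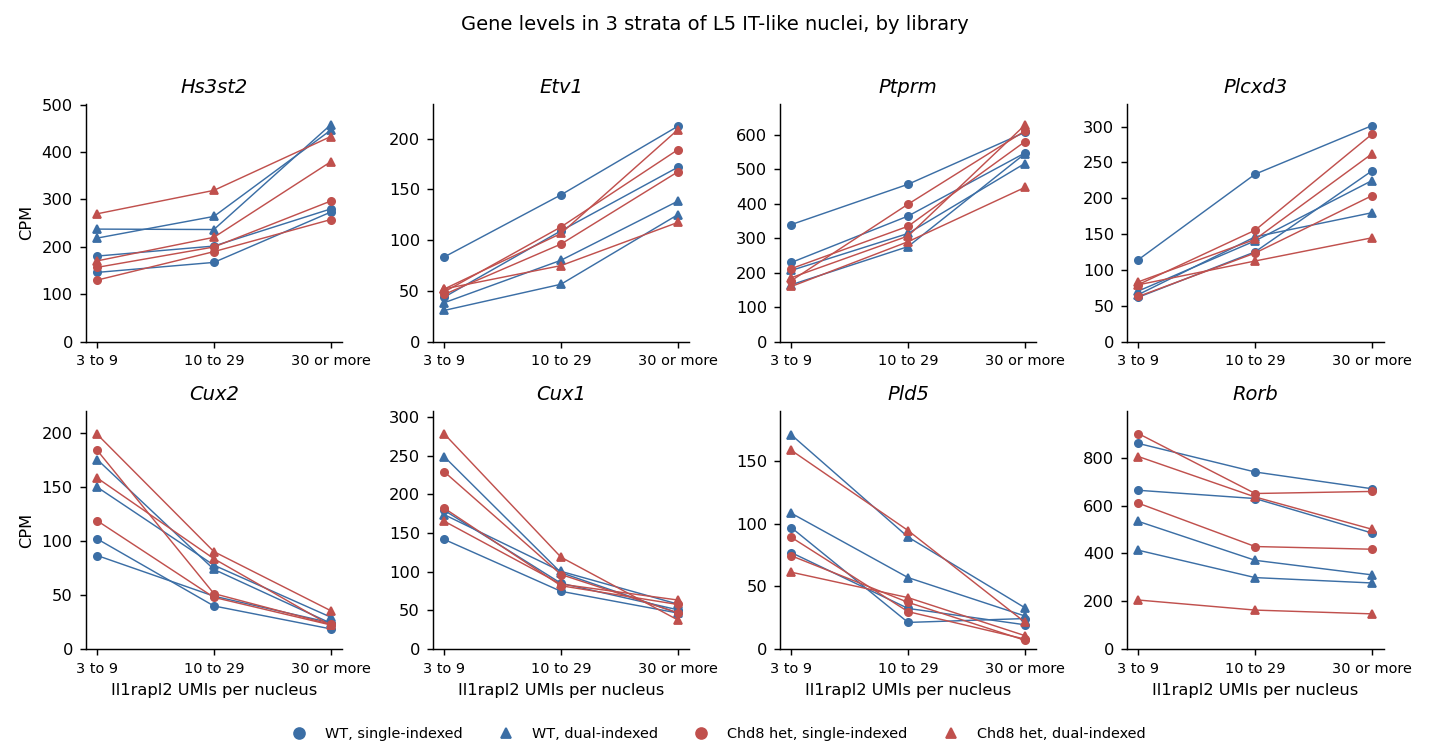
Levels of 8 genes (CPM) in members with 3 to 9, 10 to 29 and at least 30 Il1rapl2 UMIs, with 1 line per library, blue for WT and red for Chd8 het, circles for single-indexed and triangles for dual-indexed. Etv1 (49.4 to 166 CPM on average between the outer groups) and Ptprm (209 to 560) climbed with Il1rapl2 while Cux2 (146 to 24.8), Cux1 (200 to 50.9) and Pld5 (105 to 18.8) declined.

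Members with a Deptor UMI also differed from those with Scube1 alone. Most members with Deptor carried Scube1 too. The 3321 members with a Deptor UMI had Hs3st2 at 296 ± 69.8 CPM against 213 ± 52.9 in the 1953 with Scube1 alone, and Etv1 at 133 ± 30.1 against 78.4 ± 23.0. Cux2 was at 53.1 ± 10.3 against 99.6 ± 31.8 CPM and Tshz2 at 239 ± 151 against 126 ± 99.7. Of the 15 leading genes, 12 were higher in members with Deptor in 8 of 8 libraries, as were 9.93% of the same 3161 genes, with the same limit. Deptor-positive members also had Il1rapl2 2.03 times higher, so the same nuclei were partly compared again.

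Rorb, a nuclear receptor that marks layer 4 and part of layer 5, split members differently. Its level was 581, 313, 745 and 394 CPM in the WT libraries and 467, 167, 708 and 624 in Chd8 het. The level was lowest in Chd8 het male 2. Members with at least 3 Rorb UMIs numbered 2659 and those with at most 2 numbered 2876. The Rorb-high members had Thsd7a, a thrombospondin-domain membrane protein, at 331 ± 51.7 CPM against 57.6 ± 13.1 (5.74 times), Col26a1, a collagen, at 122 ± 13.8 against 18.1 ± 3.84 (6.53 times) and Whrn, a scaffold protein of hair cell stereocilia, at 51.3 ± 8.77 against 10.1 ± 2.80 (4.77 times). Spock3, a secreted proteoglycan, was 4.15 times higher, Rcan2, a regulator of calcineurin, 3.42 times, Grik1, a kainate receptor subunit, 2.90 times, and the potassium channel genes Kcnk2 and Kcnh5 2.68 and 2.62 times.

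The genes highest in Rorb-low over Rorb-high members were of several kinds. Tshz2 was at 312 ± 169 CPM against 59.5 ± 24.0 in Rorb-high members, 4.77 times higher. The guidance genes Sema3e (101 against 24.0 CPM) and Nrp1 (83.4 against 27.8), a semaphorin and a semaphorin receptor, were 4.12 and 2.92 times higher. Cdh9, a cadherin, was 4.05 times higher, Rspo2, a secreted enhancer of Wnt signalling, 2.91 times, Grik4, a kainate receptor subunit, 2.57 times, Galnt14 2.54 times and Zfpm2, a zinc finger cofactor, 2.41 times. Each of these had the same sign in 8 of 8 libraries. Galnt14 was at 94.5 ± 43.6 CPM in Rorb-low members. Etv1 hardly differed, with 115 ± 31.5 CPM in Rorb-low and 110 ± 28.9 in Rorb-high members, and Rorb-high was above in 4 of 8 libraries. Hs3st2 was at 287 ± 68.5 CPM in Rorb-low and 249 ± 49.2 in Rorb-high members.

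The split was uneven over libraries. Rorb-low members made up 45.4%, 58.4%, 39.0% and 52.1% of members in the WT libraries and 50.4%, 76.7%, 40.0% and 45.7% in Chd8 het. Chd8 het male 2 was the highest, and the other 7 libraries of both genotypes interleaved. The mean was 48.7% ± 8.41 in WT and 53.2% ± 16.2 in Chd8 het (SD, n = 4 libraries each; exact permutation p = 0.743, two-sided). Without Chd8 het male 2 the Chd8 het mean was 45.4% and the difference -3.36 percentage points (exact p = 0.571). By index type the means were 43.7% for the single and 58.3% for the dual index (exact p = 0.0571), with overlap, and without Chd8 het male 2 the dual mean was 52.1% (exact p = 0.114). The share with at least 30 Il1rapl2 UMIs was 34.8% ± 2.58 in WT and 33.4% ± 1.87 in Chd8 het (exact p = 0.429). Adjusted by Benjamini-Hochberg over the 6 such measures compared between genotypes, each p was 1.0.

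**Figure D3:**
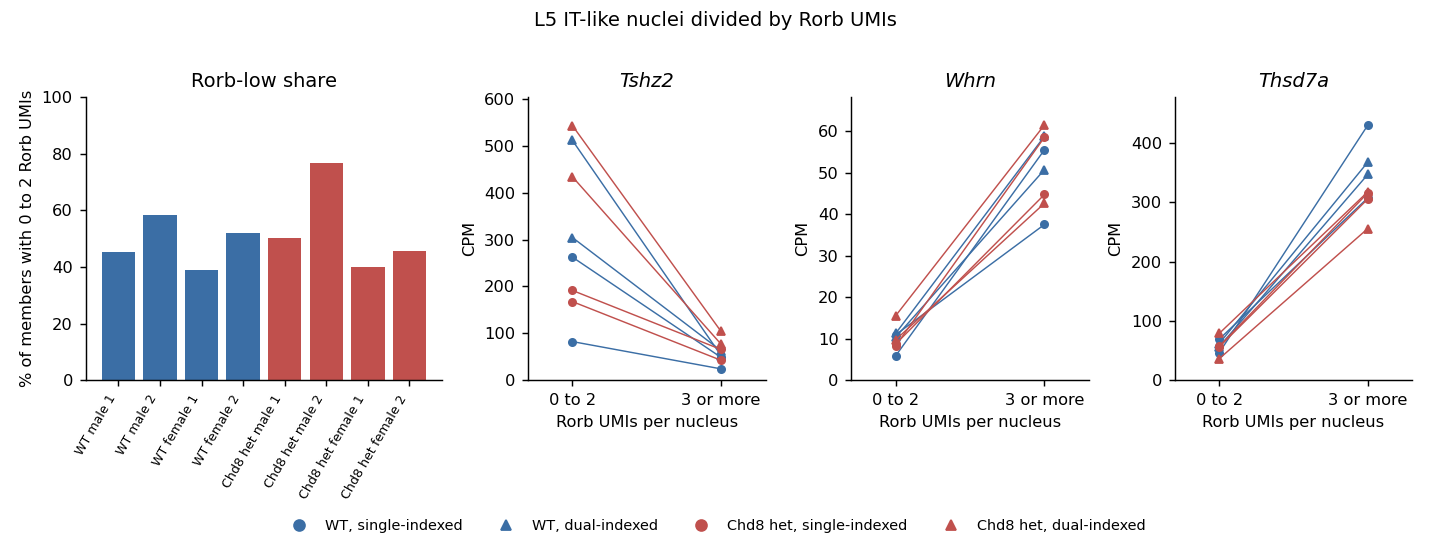
Percentage of members with 0 to 2 Rorb UMIs in each library (bars from 0, blue for WT and red for Chd8 het) and levels (CPM) of Tshz2, Whrn and Thsd7a in members with at most 2 and at least 3 Rorb UMIs, 1 line per library. The Rorb-low share ran from 39.0% to 76.7%, highest in Chd8 het male 2, and Tshz2 was higher in Rorb-low members in all 8 libraries.

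The first question the design asks of these nuclei is whether their number or depth differed with genotype. Members made up 10.8%, 16.1%, 10.2% and 15.96% of excitatory nuclei in the WT libraries and 11.3%, 14.9%, 11.8% and 15.4% in Chd8 het. The values of both genotypes overlapped and fell into a lower set, the single-indexed libraries, and a higher set, the dual-indexed ones. Binomial 95% intervals (Wilson), which cover counting error only, ran from 9.40% to 11.01% in the lowest library and from 15.1% to 17.2% in the highest. The mean was 13.3% ± 3.22 in WT and 13.3% ± 2.09 in Chd8 het, a difference of 0.0891 percentage points (exact permutation p = 0.971, two-sided, smallest possible p 0.0286). The difference was 1.08 points among single-indexed libraries and -0.899 among dual-indexed ones. The median UMI count per member was 12142 ± 1125 in WT and 12183 ± 1540 in Chd8 het (exact p = 0.971).

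Index type separated the share where genotype did not. Single-indexed libraries had 11.02% ± 0.692 and dual-indexed 15.6% ± 0.563 (exact p = 0.0286, the smallest 4 against 4 allows). Median depth per member moved with it, 11241 ± 219.8 against 13084 ± 1152 UMIs (exact p = 0.0286). With nuclei thinned to 5000 UMIs, which left out 2408 to 5096 shallower nuclei per library, the shares were 7.13% ± 0.689 and 9.22% ± 1.33 (exact p = 0.0571). Other excitatory classes also differed: Rorb-rich nuclei made up 21.8% of excitatory nuclei with the single index and 12.9% with the dual index, and Galnt14 and Sulf1-rich nuclei 3.67% and 7.42% (exact p = 0.0286 for each). Without Chd8 het male 2 the dual means were 14.9% and 7.21% (exact p = 0.0571 for each, the smallest that 4 against 3 allows). Index type equals the replicate number, so anything else that differed between the sets of animals cannot be told apart from it.

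For gene levels between genotypes, Chd8 was examined first. It was at 71.1, 78.6, 77.7 and 78.9 CPM in WT and at 77.7, 92.3, 79.1 and 72.3 CPM in Chd8 het. The groups overlapped, and the log2 difference (Chd8 het minus WT) was 0.04 with SE 0.09. UMIs from the 3' end of a gene whose mutant allele is not described do not check the genotype labels, since a mutant transcript could still carry that end.

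Summed counts of members were compared by edgeR's quasi-likelihood test with sex as a covariate and Benjamini-Hochberg adjustment over all 15172 genes tested. The test called 0 genes at an adjusted p under 0.05 (0% of genes). At an unadjusted p under 0.05 there were 284 genes (1.87%), 185 higher and 99 lower in Chd8 het. The libraries of both genotypes did not overlap for 253 genes (1.67%), and 2002 genes (13.2%) moved the same way in 4 of 4 pairs of the same sex and number. With the pair of same sex and number as a block, the test called 1 gene (0.00659%), and 862 genes (5.68%) had an unadjusted p under 0.05. DESeq2 called 1 gene without and 18 with the block (0.119% of the 15172 genes, of which 8530 had no adjusted p with the block).

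The gene called with the block was 5330434G04Rik, a long intergenic noncoding RNA of unknown function at chrX:105348282-105391776 (mm10), whose span includes Mir325. Earlier work on these same libraries had named this gene, so its call here is not independent evidence. It was at 158, 132, 166 and 123 CPM in the WT libraries and at 95.7, 81.6, 103 and 82.4 CPM in Chd8 het. Every Chd8 het library was below every WT library, and within each genotype the single-indexed libraries were the higher ones. The log2 change was -0.70 with SE 0.12 in the fit with sex (adjusted p = 1.00, edgeR), -0.70 with SE 0.07 with the block (adjusted p = 0.0136) and -0.70 with index type added to sex (adjusted p = 0.0101). It was -0.70 among single-indexed libraries and -0.63 among dual-indexed ones. When single libraries were left out of the fit with index type, the gene was called in 3 of 8 fits, those without Chd8 het male 2, female 1 or female 2. Its change was not called as different from that in Rorb-rich nuclei of the same libraries (difference 0.20, adjusted p = 1.00, edgeR).

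The 12 genes with the smallest p in the fit with sex all had non-overlapping genotypes and the same direction in 4 of 4 pairs. Of all genes tested, 1.67% had the first trait and 13.2% the second. The 12 were chosen by p in these same libraries, so nothing is read from their separation. None passed the adjusted threshold in the fit with sex, and 7 were coding genes. 5330434G04Rik, described above, was 1 of the 5 noncoding ones. Grb10, an adaptor that dampens insulin receptor signalling and is imprinted, lies at chr11:11930508-12038683 (mm10). It was at 35.4, 29.1, 37.5 and 27.4 CPM in WT and 52.2, 49.6, 56.2 and 43.0 in Chd8 het. All Chd8 het libraries were above all WT libraries. Its log2 change was 0.61 (SE 0.13), 0.56 among single-indexed libraries and 0.69 among dual-indexed ones. The adjusted p was 0.0825 with the block by edgeR and 0.0044 by DESeq2 with the block.

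Sema6d, a transmembrane semaphorin, was at 277, 264, 255 and 240 CPM in WT and 338, 356, 306 and 302 in Chd8 het, a log2 change of 0.30 (SE 0.07). Plxdc2, a plexin-domain membrane receptor, was at 135, 138, 159 and 142 CPM in WT and 185, 170, 185 and 196 in Chd8 het, a log2 change of 0.33 (SE 0.08). Abi3bp, an extracellular matrix protein, went from 9.65 ± 1.31 to 14.4 ± 0.856 CPM. Both Sema6d and Plxdc2 were higher in every Chd8 het library than in any WT library, with adjusted p of 0.261 and 0.306 with the block by edgeR.

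The other 3 coding genes of the list were at lower levels. Glra3, a glycine receptor subunit, was at 8.63, 7.82, 8.82 and 8.71 CPM in WT and 11.3, 13.0, 12.3 and 11.6 in Chd8 het, a log2 change of 0.48 (SE 0.12). Syt9, a synaptotagmin, was at 6.66 ± 1.04 CPM in WT and 11.4 ± 2.29 in Chd8 het. Igflr1, a receptor of the tumour necrosis factor receptor family, was at 2.04 ± 0.155 and 4.12 ± 1.12 CPM. These were low levels, and none passed with the block by edgeR (adjusted p from 0.306 to 0.470).

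The remaining 4 of the 12 were noncoding transcripts at low levels. Gm21691, antisense to Mylk and Hacd2, was at 2.74 ± 0.443 CPM in WT and 5.81 ± 0.323 in Chd8 het. Gnasas1, antisense to the imprinted gene Gnas, was at 1.99 ± 0.311 and 0.665 ± 0.141 CPM, Gm2682 at 5.49 ± 2.89 and 1.66 ± 0.551, and Gm36814 at 3.33 ± 0.322 and 1.65 ± 0.420. Reads of the antisense genes cannot be told apart from those of their partners here.

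**Figure D4:**
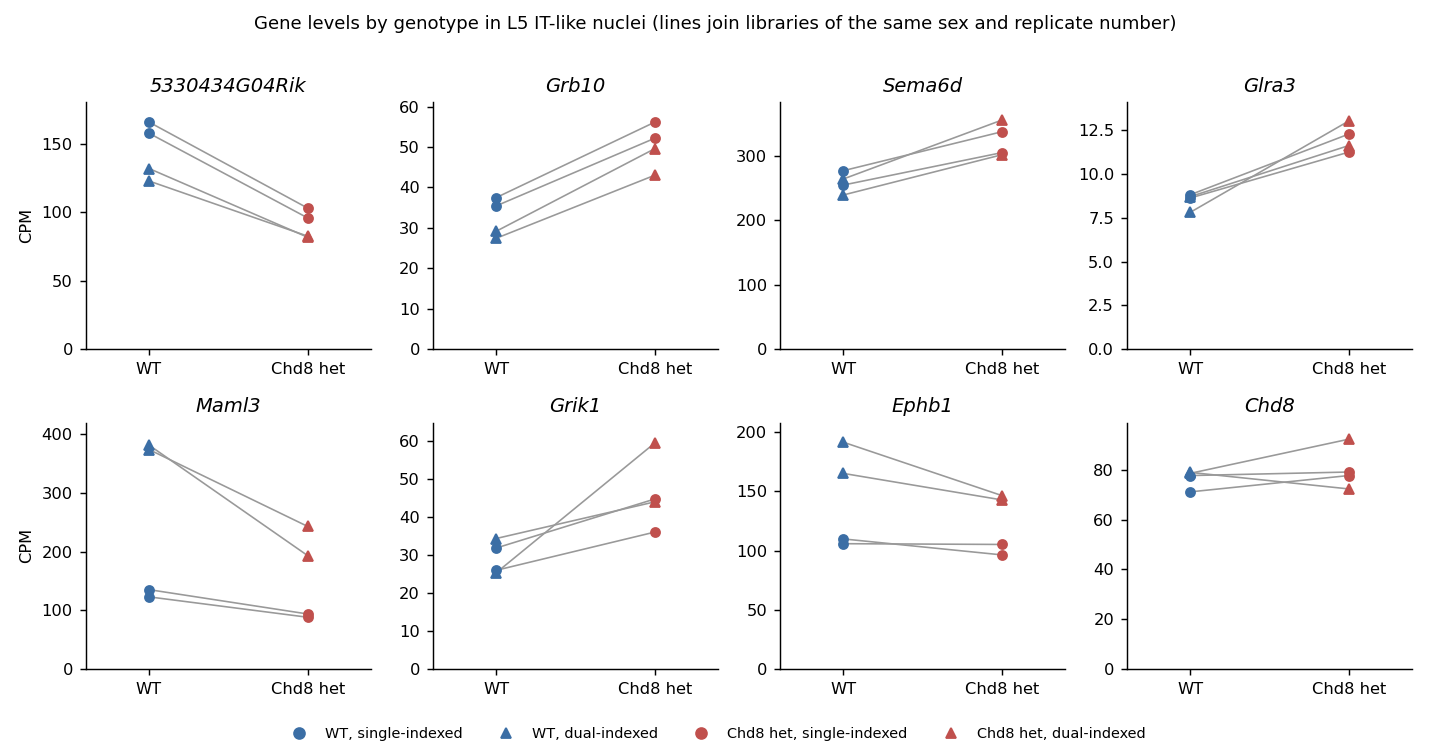
Levels (CPM, axis from 0) of 8 genes in WT and Chd8 het libraries of L5 IT-like nuclei, with lines joining the pair of equal sex and number, blue for WT and red for Chd8 het, circles for single-indexed and triangles for dual-indexed. 5330434G04Rik was lower in all Chd8 het libraries (81.6 to 103 CPM) than in any WT library (123 to 166), Grb10, Sema6d, Glra3 and Grik1 were higher, and Chd8 and Maml3 overlapped.

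Genes that earlier work on these files had named were followed here as well. Maml3, a Mastermind coactivator of Notch signalling at chr3:51685907-52105076 (mm10), was at 123, 381, 135 and 374 CPM in WT and 88.4, 193, 93.9 and 243 CPM in Chd8 het. The dual-indexed libraries were the high ones in both genotypes, the groups overlapped, and Chd8 het was the lower in 4 of 4 pairs. Its log2 change was -0.76 with SE 0.47 in the fit with sex and -0.69 with SE 0.09 with the block (adjusted p = 0.0825 by edgeR and 3.36e-06 by DESeq2). Over 34 alternative settings the change ran from -1.12 to -0.33. In members with at least 30 Il1rapl2 UMIs the block gave -0.83 (adjusted p = 0.0114, edgeR), where 5330434G04Rik was the only other gene called (2 genes, 0.0158%). In Rorb-low members it called 4 genes (0.0305%), all lower in Chd8 het: Maml3 (-0.74), 5330434G04Rik (-0.74), Gm20089 (-1.63) and 4930415C11Rik (-1.03), each with adjusted p = 0.0480. In Rorb-high members it called 0 (0%), with a smallest adjusted p of 0.0535 (edgeR). Genes at an unadjusted p under 0.05 numbered 685 in Rorb-low and 652 in Rorb-high members, and the difference between these groups was not tested. Gm20089 lies antisense inside Maml3, so the reads of both cannot be told apart.

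Other genes of that list gave smaller or more variable differences. Usp11, a deubiquitinating enzyme, was at 22.7 ± 2.84 CPM in WT and 17.1 ± 1.09 in Chd8 het with no overlap (log2 change -0.43, SE 0.11). Shisa6, an auxiliary subunit of AMPA receptors, was at 49.1 ± 16.9 and 36.8 ± 20.6 CPM and overlapped. Ephb1, an ephrin receptor, was at 143 ± 42.1 and 123 ± 25.6 CPM, lower in Chd8 het in 4 of 4 pairs but overlapping. None was called by edgeR with the block. 5330434G04Rik and Glra3, given above, were also on that list. All genes of the list were named from the same libraries, so their direction here is not independent evidence.

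Gene lists relevant to the type and to Chd8 were described by their counts, beside a median log2 change of 0.00 over all genes tested. Genes of the rule were counted where a list held them and are not read as results. In each list 0 genes were called in the fit with sex (0% of all genes). Of the 9 CHD remodeller genes 5 were above and 4 below 0 (median 0.01), with Chd7 at 0.28. Of 27 autism-associated chromatin and transcription genes 16 were above 0 (median 0.02). Of 25 measured Wnt pathway genes, a pathway that CHD8 is known to act on, 17 were above 0 (median 0.09). The member with the smallest p was Nkd1, a Wnt inhibitor, at 1.32 ± 0.143 CPM in WT and 2.19 ± 0.414 in Chd8 het. Of 17 measured Notch pathway genes 8 were above 0 (median -0.01). The 23 mTOR pathway genes, among them Akt1s1, a substrate and inhibitor of mTOR complex activity, had a median of 0.02, with 13 above 0. Akt1s1 itself was at 3.89 ± 0.830 CPM in WT and 5.67 ± 0.951 in Chd8 het.

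Receptor and channel lists had 0 calls too. Of 19 NMDA, kainate and metabotropic glutamate receptor genes 10 were above 0, with Grik1 the smallest p. Grik1 was at 31.9, 25.4, 26.0 and 34.4 CPM in WT and 44.8, 59.6, 36.1 and 44.1 in Chd8 het, without overlap (log2 change 0.60, SE 0.17, adjusted p with the block 0.321, edgeR). Within members Grik1 was also a Rorb-high gene, and the share of Rorb-high members by library is given above. Of 16 AMPA receptor genes 7 were above 0 (median -0.05), and of 23 sodium and calcium channel genes 10 (median -0.02). Of 29 potassium and HCN channel genes 12 were above 0 (median -0.01).

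Lists near the identity of the type had 0 calls as well. Of 17 heparan sulfate genes 6 were above and 11 below 0 (median -0.03), with Hs3st5, a 3-O-sulfotransferase, at 159 ± 15.2 CPM in WT and 193 ± 19.6 in Chd8 het. Of 20 layer transcription factors 10 were above and 10 below 0. Of 38 axon guidance genes 18 were above 0, with Sema6d the smallest p, and of 33 synaptic adhesion genes 13 were above and 20 below 0 (median -0.02). Among these Cadm2, a synaptic adhesion molecule, was at 4798 ± 98.8 CPM in WT and 4514 ± 96.96 in Chd8 het, a log2 change of -0.12 without overlap. Of 17 immediate early genes 11 were above 0 (median 0.08). Among the 6 Il1rapl family and partner genes 5 were below 0, with Ptprf, a presynaptic receptor phosphatase, at 0.13. Of the 4 measured genes of the Scube and relaxin receptor list 1 was above and 3 were below 0 (median -0.11). The lowest was Rxfp2 (-0.36), a gene of the rule, so nothing is read from the direction of this list. Of the 25 genes that described the type above, 0 were called for genotype by edgeR in the fit with sex, with log2 changes from -0.36 to 0.49 there.

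Whether genotype changes differed between L5 IT-like and Rorb-rich nuclei was tested as a class by genotype term on sums of both classes. Of 16014 genes 0 were called by edgeR at an adjusted p under 0.05 (0%), and 654 (4.08%) had an unadjusted p under 0.05. The smallest adjusted p, 0.0972, was shared by Cntnap5a, a neurexin-family adhesion gene, and Gm12296, which lies antisense to Shisa6. Cntnap5a was at 992 ± 189 CPM in WT and 974 ± 233 in Chd8 het members, and at 491 ± 97.1 and 614 ± 132 in Rorb-rich nuclei (difference -0.36, SE 0.06). Gm12296 was at 18.8 ± 8.05 and 16.9 ± 13.9 CPM in members and 72.6 ± 41.3 and 36.8 ± 31.7 in Rorb-rich nuclei (difference 0.81, SE 0.14). Without WT female 1, the test called 5 genes, Robo1, Gm12296, Syt17, Rxfp1 and Cntnap5a, which were named after their values were seen.

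Many more genes were called between index types than between genotypes. edgeR called 2916 of 15172 genes (19.2%) between index types, 1531 higher and 1385 lower in dual-indexed libraries, and 5204 (34.3%) had an unadjusted p under 0.05. AY036118, a noncoding transcript, was at 130 ± 15.7 CPM with the single index and 328 ± 20.1 with the dual index (log2 change 1.35, adjusted p = 8.13e-05, edgeR). Maml3 was at 110 ± 22.7 and 298 ± 94.3 CPM (1.41), and Pde10a, a cyclic nucleotide phosphodiesterase best known from the striatum, at 748 ± 170 and 1850 ± 463 (1.31). Them4, a thioesterase, rose by 1.42 and Gm15083, a noncoding gene, by 0.96. Of the 25 genes that described the type, 12 were called for index type, among them Hs3st2, higher by 0.59 in dual-indexed libraries.

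The genes that led Rorb-low or Rorb-high members were also described by index type. They were chosen from these same members after values were seen, so nothing is read from their counts. Of the 12 genes that led Rorb-low members, 12 were above 0 and 10 were called higher in dual-indexed libraries, with a median log2 change of 0.84. Of all 15172 genes 1531 were called higher and 1385 lower, 19.2% in either direction. Of the 12 that led Rorb-high members 11 were below 0 and 5 were called lower. Rorb itself was lower by a log2 change of -0.80 and is a gene on which these groups were drawn. The Rorb-low shares of the index types, which overlapped, are given above. Within Rorb-low members alone the 12 Rorb-low genes had a median change of 0.63 with 9 called, and within Rorb-high members alone 0.56 with 6 called, all higher. Of all genes 8.29% were called higher and 8.1% lower in dual-indexed libraries within Rorb-low members, and 7.58% and 4.67% within Rorb-high members. The 12 Rorb-high genes had a median of -0.36 over all members, 0.11 within Rorb-low members (2 called higher, 1 lower) and -0.06 within Rorb-high members (0 called higher, 2 lower). Dscaml1 changed by 1.64 over all members, 1.46 within Rorb-low and 1.46 within Rorb-high members. Tshz2 changed by 1.54, 1.37 and 0.74, and Galnt14 by 1.34, 1.12 and 1.17 in the same order, each called by edgeR.

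**Figure D5:**
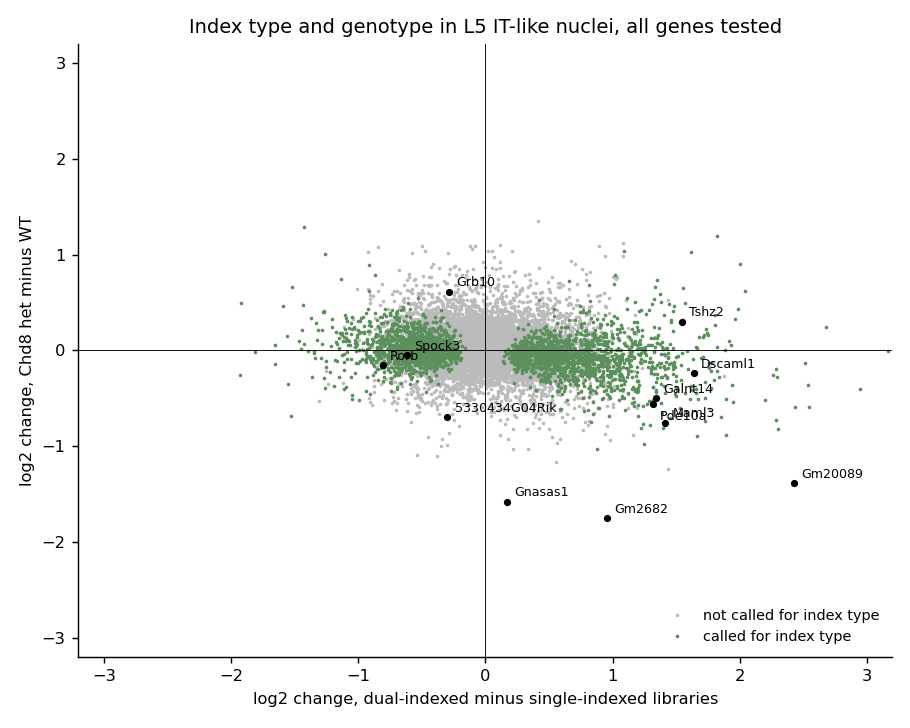
Log2 change between index types (x axis, dual-indexed minus single-indexed) against log2 change between genotypes (y axis, Chd8 het minus WT) for 15157 genes outside the rule in L5 IT-like nuclei, with genes called for index type in green; 4 further genes lie outside the axes. The cloud is wider along x than along y, with Maml3 (1.41 and -0.76) and Dscaml1 at the right and 5330434G04Rik (-0.30 and -0.70) below the centre.

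Sex served as a contrast of the same size as genotype. edgeR called 6 of 15172 genes (0.0395%): Xist and Tsix, the X-inactivation transcripts, in females, and the Y-linked genes Uty, Kdm5d, Eif2s3y and Ddx3y in males. At an unadjusted p under 0.05 there were 755 (4.98%). A genotype change that differed between the sexes was called for 0 genes by edgeR (0%), with 2 libraries in each group of sex and genotype. At an unadjusted p under 0.05 there were 116 genes (0.765%). That fit had no term for index type or pair, so differences between index types stayed in the spread it tested against.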

How the data were processed

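The deposited matrices held UMI counts per gene and barcode for 8 libraries, 1 per animal, as whole numbers that the authors had not normalized. STAR 2.7.9a, STARsolo, Cell Ranger and mm10 are named in the submitters' processing notes. Their roles, the strand setting and the use of intronic reads are not given in the sources used here.

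Barcodes were filtered and members chosen by the stated UMI rule, and counts were summed per library. The members, gene lists and comparison classes were chosen with earlier results of these data known. Levels (CPM) are summed UMIs scaled to a total of 1000000, and log2 changes come from TMM-normalized fits. Genes with low counts were removed by filterByExpr with a minimum count of 10. The tests were edgeR 4.0.16 (quasi-likelihood, Benjamini-Hochberg over all genes tested, call at an adjusted p under 0.05) in R 4.3.3, DESeq2 1.42.0 as an alternative, and exact permutation over libraries (scipy 1.17.1) for single values. The scripts were tested on simulated counts. The p-values measure the spread between animals.

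Comparison classes were excitatory nuclei outside the type: Rorb-rich (Rorb at least 3, Galnt14 with Sulf1 at most 2), Galnt14 and Sulf1-rich (their sum at least 3, Rorb at most 2), both with Il1rapl2 and Foxp2 at most 2, and Foxp2-rich (Foxp2 at least 3). The glial reference had no UMI of Slc17a7, Gad1 or Gad2. Doublets were scored per library with Scrublet (scanpy 1.11.5, expected rate 0.8% per 1000 nuclei) and kept, except in an alternative.

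Genes were named by rule: the 15 highest and 10 lowest against other excitatory nuclei (at least 50 CPM in the higher, 8 of 8 libraries), the 12 with the smallest p between genotypes, every gene called with the block, Chd8, genes of earlier calls, the smallest p of each list, and the 5 smallest p for index type and for class by genotype. Genes and groups within members were chosen after values were seen. Some genes that the rule names are not reported here. Coordinates come from GENCODE M21 on GRCm38 (mm10), to which 32158 of 32285 gene IDs matched.

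Whether replicate numbers pair libraries was checked by the correlation of deviations from group means. Libraries of the same sex and number had r of 0.33 to 0.71 in all 4 pairs, libraries sharing the number only 0.10 to 0.50, and others -0.71 to 0.06. The ranges overlapped: WT female 2 had a higher r with Chd8 het male 2 (0.46) than with Chd8 het female 2 (0.33), its pair in the block. The number equals the index type in the labels, and what else same-numbered animals share, litter included, cannot be told apart from it.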

Additional observations from a re-analysis of the deposited data

Results flagged for a closer look

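In groups of 4 libraries, a value was picked out where its gap to the nearest other library exceeded Dixon's 95% critical value as a share of the group's range, which chance gives in about 1 in 20 groups. Of 84 groups examined, 4 were picked out. Syt9 was at 14.8 CPM in Chd8 het male 2, with 9.88 to 10.5 CPM in the other Chd8 het libraries. Gm2682 was at 2.48 CPM in Chd8 het female 2, with 1.33 to 1.44 in the others. Chd8 was at 71.1 CPM in WT male 1, with 77.7 to 78.9 in the others. Akt1s1 was at 7.09 CPM in Chd8 het female 1, with 5.08 to 5.34 in the others.

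In 3 measures the genotype differences of both libraries of one set and both of the other went opposite ways, and the difference between the sets was not tested. The share of members among excitatory nuclei differed between genotypes (Chd8 het minus WT) by 1.08 percentage points in single-indexed and by -0.899 in dual-indexed libraries, a gap of 1.98 points. The median UMI count per member differed by -648 in males and 728 in females, a gap of -1376. The share of members with at least 30 Il1rapl2 UMIs differed by -4.74 points in males and 1.88 in females, a gap of -6.62.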

How the results depend on the processing

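The count of genes called between genotypes, 0 in the fit with sex, was 1 with DESeq2, 1 with index type added to sex, 3 with no filter on low counts (5330434G04Rik, Gm2682 and 4930415C11Rik), and 0 when any single library was left out of that fit. With the replicate block in place of sex it was 1, with the block in DESeq2 18, with the block in members with at least 30 Il1rapl2 UMIs 2 and in members with at most 2 Rorb UMIs 4. With index type added and single libraries left out it ran from 0 to 19, the highest without Chd8 het female 2. The class by genotype count was 43 with no filter and 0 to 5 with single libraries left out. The index type count, 2916, was 1618 in members with at least 3 Rorb UMIs and 1551 in those with at least 30 Il1rapl2 UMIs, where fewer nuclei entered, and 1359 (without WT male 1) to 3714 with single libraries left out. The sex count, 6, was 14 with DESeq2 and 73 with no filter. The difference in share of members turned to -0.0028 points over all kept nuclei, -0.317 with at least 3 UMIs of Deptor, Scube1 and Rxfp2, and -0.223 in thinned nuclei, and ran from -0.938 to 1.04 with single libraries left out; the median UMI difference ran from -717 to 470. The cause of these changes was not tested. Among named genes the direction turned for Chd7 with the block in members with at least 30 Il1rapl2 UMIs (-0.0035), for Tcf7l2 in Rorb-low members (-0.0405, and -0.0286 with the block), for Rxfp1 in members with at least 30 Il1rapl2 UMIs (-0.19, and -0.20 with the block) and in Rorb-low members (-0.14, and -0.16 with the block). With single libraries left out Chd8 ran from -0.0416 to 0.0803 and Rxfp1 from -0.0618 to 0.237; with index type added, Chd8 was -0.0154 without WT male 1 and -0.0357 without Chd8 het male 2, and Rxfp1 -0.0406 without Chd8 het male 1 and -0.0440 without Chd8 het female 2. The block was fitted only for the genotype comparison, where it changed no call beyond those given, and signs permuted within pairs for the share of members left that share uncalled (exact permutation p = 1). With 4 libraries per genotype, no test of a single value could go below p = 0.0286 (exact permutation).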

Other observations

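DESeq2 with the pair of same sex and number as a block called 18 genes between genotypes in L5 IT-like nuclei, where edgeR with the block called 1, and gave no adjusted p for 8530 genes. These genes were named after their values were seen. The 5 higher in Chd8 het included Grb10, Rps6ka5, a stress-activated kinase of histones and CREB, Cep112 and Slc4a4, a sodium bicarbonate cotransporter. The 13 lower were mostly noncoding, among them 5330434G04Rik, 4930419G24Rik, Csmd2os, Gm47460, 4930415C11Rik, Gm48003 and 9630014M24Rik, and included the coding genes Maml3, Pde10a, Iqgap2, a scaffold protein, and Kazn. Pde10a had a mean of 1520 ± 763 CPM in WT and 1077 ± 583 in Chd8 het, and the dual-indexed libraries were the higher ones in both genotypes.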
